A study of Mus musculus with 26 samples.

Results

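The endoplasmic reticulum (ER) chaperone group comprised 10 genes: *Hspa5*, *Hyou1*, *Hsp90b1*, *Calr*, *Canx*, *Pdia3*, *Pdia4*, *Pdia6*, *P4hb* and *Xbp1*. They were taken by gene symbol and by no measured value, though with earlier results of these data known. Each symbol matched a single transcript in every table, so the group made up 10 of 8576 transcripts in both transgenic tables and 10 of 9561 in the LRRK2 KO table. *Hspa5* is transcript uc008jis.2 at chr2:34627490-34632051, *Hsp90b1* is uc007gqi.1 at chr10:86152954-86168254, and *Xbp1* is uc007hwm.1 at chr11:5420662-5425896 in mouse assembly NCBIM37.

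The study measured ribosome footprints and total RNA in the striatum of mice with altered *Lrrk2*, the Parkinson's disease kinase gene. Footprinting counts the mRNA stretches that ribosomes protect from nuclease, RNA-Seq counts the RNA itself, and their ratio is the translation efficiency (TE). Each library came from a pool of 3 mice of mixed sex, so a replicate is a pool and not a mouse. All mice were 3 months old by their labels and on the C57BL/6 strain.

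GS LRRK2 TG mice carried a G2019S LRRK2 transgene, and GS/DA LRRK2 TG mice carried G2019S/D1994A LRRK2, whose kinase is dead. Both transgenes were of a high copy number line and were driven by CaMKII-tTA in a Tet-off system, a driver known for forebrain neurons, so not all cells of the tissue carried an active transgene. Doxycycline kept them silent during breeding and was withdrawn after weaning. Labels give 3 libraries per assay for control mice without the transgene (non-TG) and 2 per assay for each transgenic genotype. LRRK2 KO mice carry a knock-out of the gene in all cells and were set against wild-type (WT) mice, with 3 footprinting and 2 RNA-Seq libraries of each in the labels. The deposited WT and LRRK2 KO footprinting means resolved into 2 libraries each, and the tables do not name which of the labelled replicates these are. The single ventral midbrain libraries of WT and LRRK2 KO mice are in no table.

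Secretory and membrane proteins fold in the ER lumen, where Hsp70 and Hsp90 class chaperones hold unfolded chains, lectins retain glycoproteins until they are folded, and disulfide isomerases form and rearrange their disulfide bonds. When unfolded proteins accumulate, the unfolded protein response (UPR) raises transcription of these chaperones through ATF6 and the spliced form of XBP1. Neurons depend on this machinery for receptors, channels and synaptic vesicle proteins, and glia that secrete or make much membrane depend on it too.

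In the LRRK2 KO table, libraries of a genotype differed far more in the ER chaperones than the genotypes did. Footprints on *Hspa5*, the main Hsp70 class chaperone of the ER lumen, were at 1564 and 534 normalized reads in the WT libraries and at 1640 and 638 in the LRRK2 KO libraries. Library 1 of each genotype was thus high and library 2 low. Of the 10 members, 9 were at least 2-fold higher in footprinting library 1 in WT mice, against 12.9% of all transcripts, and 9 in LRRK2 KO mice, against 14.6%. The median log2 ratio of library 1 to library 2 over the members was 1.33 in WT and 1.47 in LRRK2 KO, where all transcripts had medians of -0.01 and -0.01. *Hyou1*, an Hsp70 relative that exchanges nucleotide on the *Hspa5* product, had the widest gap in LRRK2 KO footprints, with 646 normalized reads in library 1 and 161 in library 2. *Xbp1*, the UPR transcription factor, was the exception, at 104 and 111 in the WT libraries and 151 and 148 in the LRRK2 KO libraries.

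RNA-Seq libraries of the LRRK2 KO table also stood apart in these genes. *Hspa5* RNA was at 573 and 1795 normalized reads in WT and at 773 and 1391 in LRRK2 KO, so library 2 was the high one in both genotypes. All 10 members were higher in RNA-Seq library 2 of either genotype. The gap reached 2-fold for 7 in WT, against 6.43% of all transcripts, and for 6 in LRRK2 KO, against 5.32%. The lowest fold between libraries was 1.55 in WT and 1.58 in LRRK2 KO. Each lysate was split for both assays, but the deposited columns name no pool, and the libraries of each assay are numbered here on their own. If both libraries numbered 1 are paired, *Hspa5* TE (log2) in WT is 1.45 and -1.75, and the members' median 0.95 and -1.66. If footprinting library 1 is paired with RNA-Seq library 2, *Hspa5* TE is -0.20 and -0.10 and the members' median -0.34 and -0.51. In LRRK2 KO the members' median is 0.98 and -1.43 by the former pairing and -0.04 and -0.49 by the latter. Read depth, set beside the mapped reads listed with the methods, favours the latter pairing, which no label states.

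**Figure D1:**
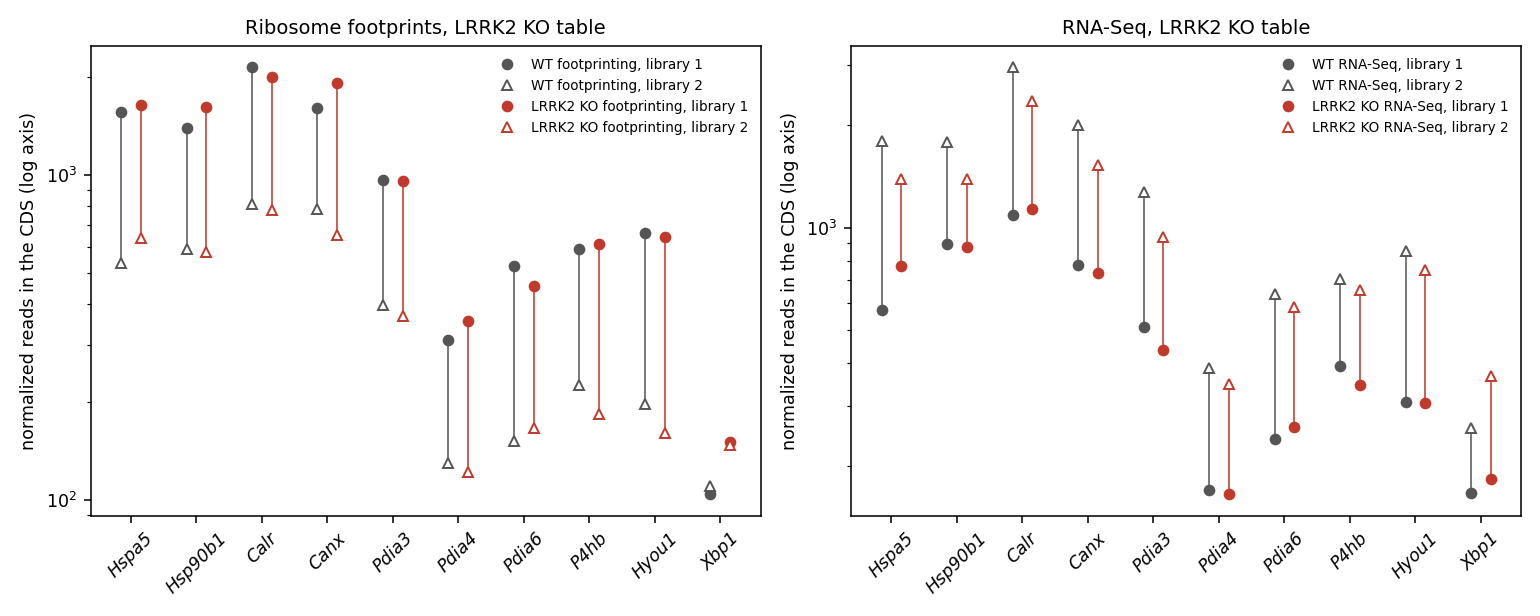
Normalized reads in the coding sequence (log axis) of each ER chaperone gene in the single libraries of the LRRK2 KO table, with footprints on the left and RNA-Seq on the right; a line joins both libraries of a genotype. Footprints on *Hspa5* sit at 1564 and 1640 in library 1 and at 534 and 638 in library 2 of WT and LRRK2 KO mice, while *Xbp1* footprints lie between 104 and 151 in all footprinting libraries.

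Other ER genes differed between these footprinting libraries as well. At least 2-fold higher in library 1 were 9 of 14 oxidative folding and other disulfide isomerase genes in WT and 12 of 14 in LRRK2 KO, and 5 of 6 genes of the glycoprotein folding cycle in each genotype. In the same order of genotypes they were 6 and 9 of 9 proline isomerases and calcium-binding lumenal proteins, 7 and 8 of 14 ER co-chaperones, 11 and 12 of 25 genes of the translocon, signal peptidase and oligosaccharyltransferase, 8 and 7 of 21 genes of ER-associated degradation, and 3 and 3 of 11 UPR sensors and transcription factors. Cytosolic chaperones gave 1 of 31 in WT and 0 of 31 in LRRK2 KO. Markers of cell types moved between the same libraries. Summed footprints on 8 of 8 microglia markers were at 820 and 195 normalized reads in WT and at 938 and 193 in LRRK2 KO, with *C1qc* the most abundant in RNA. Summed footprints on 7 of 7 astrocyte markers were at 10046 and 5277 in WT and at 10428 and 4645 in LRRK2 KO, with *Aldoc* the most abundant. Only 1 of 7 endothelial markers is listed, *Slco1c1*, at 76.3 and 34.6 in WT and at 93.1 and 28.0 in LRRK2 KO. Striatal neuron markers summed to 36999 and 26732 in WT and 39066 and 26906 in LRRK2 KO, a smaller gap in the sum. Gene by gene, 5 of 10 in WT and 6 of 10 in LRRK2 KO were at least 2-fold higher in library 1, next to 4 of 7 astrocyte markers in each genotype. Oligodendrocyte markers ran the other way in their sums, at 17570 and 23934 in WT and 19959 and 21262 in LRRK2 KO. In RNA, the microglia markers summed to 634 and 1231 in WT and 628 and 1639 in LRRK2 KO libraries, and 7 of 8 oligodendrocyte markers, those resolved, to 27037 and 14000 and to 24636 and 13967. RNA of 9 of 10 striatal neuron markers, those resolved, summed to 27371 and 38723 in WT and 28176 and 37245 in LRRK2 KO, and RNA of the astrocyte markers to 9218 and 12535 and to 9255 and 9793. Choroid plexus markers (3 of 10 listed, *Ttr* the most abundant) summed to 1160 and 710 in WT footprints and 1402 and 485 in LRRK2 KO footprints. Cortical neuron markers (7 of 7, *Slc17a7* the most abundant) summed to 3209 and 5330 in WT RNA and 2632 and 4453 in LRRK2 KO RNA, and to 3178 and 2126 in WT footprints and 2568 and 2402 in LRRK2 KO footprints. RNA of *Slco1c1* was at 126 and 100 in WT and 129 and 115 in LRRK2 KO, and RNA of the choroid plexus markers at 1675 and 1523 and at 1132 and 1575, so not all sets moved with the ER chaperones. The part of cell composition in the library difference of the ER chaperones was not tested in either assay, and in bulk tissue more cells of a type cannot be told apart from more RNA per cell.

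RNA-Seq libraries of the transgenic tables differed in another way, across much of the transcriptome. In the GS LRRK2 TG table, 56.7% of all transcripts differed at least 2-fold between both GS LRRK2 TG RNA-Seq libraries, in either direction, and 2 of 10 members did. For mice with the kinase-dead transgene the shares were 49.3% for control RNA-Seq, with 2 of 10 members, and 57% for GS/DA LRRK2 TG RNA-Seq, with 3 of 10 members. Footprinting libraries of these tables differed little, with 1.4% of transcripts at 2-fold or more in GS LRRK2 TG, 0.37% in controls and 0.357% in GS/DA LRRK2 TG mice of the other table, and with 0 of 10 members in each. Across transcripts, which are not independent replicates, the log2 ratio of RNA-Seq library 1 to library 2 was correlated with coding sequence GC content. Spearman rho was -0.79 in GS LRRK2 TG mice, -0.78 in controls and 0.80 in GS/DA LRRK2 TG mice. Resolved transcripts numbered 8421, 8415 and 8410 in that order, and rho rests on those with a GC content. The members with the lowest GC content, *Hsp90b1* at 43.2% and *Canx* at 45.3%, had the widest RNA gaps: *Canx*, the membrane-bound lectin calnexin, was at 6544 and 1253 normalized reads in GS LRRK2 TG RNA. *Pdia3*, at 45.6% GC, was at 1517 and 1403 in the same libraries. Footprinting libraries had a rho with GC content of 0.31 in GS LRRK2 TG mice, -0.43 in controls and -0.47 in GS/DA LRRK2 TG mice. In the LRRK2 KO table rho was 0.54 for WT and 0.23 for LRRK2 KO footprinting and -0.04 and -0.27 for RNA-Seq. The part of GC content in the library difference of the ER chaperones was not tested.

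Depth per library, as reads in the coding sequence, ran from 2627585 to 15947579 for footprinting and from 2877490 to 12618089 for RNA-Seq over the 20 libraries resolved. *Lrrk2* served as a check of the labels, which its footprints followed in direction in each comparison. Its mean RNA did not rise with either transgene. Its footprints were at 400 and 690 normalized reads in WT and at 102 and 150 in LRRK2 KO libraries. Mean *Lrrk2* footprints were 2524 in controls and 5186 in GS LRRK2 TG mice, whose single libraries were at 3320 and 7052. They were 1335 and 6017 for controls and GS/DA LRRK2 TG mice. The control means of 2524 and 1335 lie far apart, in tables that were normalized separately, and the reason was not tested. Mean RNA differed by -0.16 and -0.09 (log2) in these transgenic tables. Where resolved, these RNA means rest mostly on 1 library of a group: *Lrrk2* RNA was at 3550 and 214 in GS LRRK2 TG libraries, at 5233 and 560 in the controls of GS/DA LRRK2 TG mice and at 404 and 5038 in the latter. Of 11 striatal neuron marker symbols, 10 were listed in each table, with *Ppp1r1b* the most abundant in RNA.

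Among the ER chaperones, *Calr*, the lumenal lectin calreticulin, was the most abundant per length of coding sequence in every table. Per kilobase, control footprints on *Calr* averaged 4490 normalized reads beside GS LRRK2 TG, 5320 beside GS/DA LRRK2 TG and 1180 beside LRRK2 KO, in tables that were normalized separately. *Hspa5* and *Canx* came next, at 3000 and 2953, 3556 and 3712, and 533 and 672 in the same order of tables. Their order switched between tables, and in the WT libraries *Hspa5* spanned a wider range than the gap between the genes. By the means of the libraries, *Xbp1* was the lowest in footprints per kilobase, at 486, 580 and 96.3 in the same order of tables. By these means the members spanned 9.24-fold, 9.17-fold and 12.3-fold. By the same means, *Pdia3*, *Hsp90b1*, *P4hb* and *Pdia6* followed *Canx* and *Hspa5* in that order in all 3 tables, and *Pdia4* and *Hyou1* lay between *Pdia6* and *Xbp1*. In single WT libraries this order did not always hold per kilobase. *Pdia6* lay above *P4hb* in footprinting library 1, at 526 and 593 normalized reads over 1338 and 1530 bases. *Xbp1* lay above *Pdia4* and *Hyou1* in footprinting library 2, at 111, 131 and 197 normalized reads over 1116, 1926 and 3000 bases.

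Control TE differed among the members. Beside GS LRRK2 TG mice, control TE (log2) was 0.90 for *Hsp90b1*, the Hsp90 class chaperone of the lumen, 0.89 for *Pdia3*, the isomerase that works with both lectins, and 0.72 for *Hspa5*. Beside GS/DA LRRK2 TG mice the same genes had 1.23, 1.06 and 0.82. With a single control RNA-Seq library in place of the mean, *Hsp90b1* had 0.65 with library 1 and 2.19 with library 2, *Pdia3* 1.14 and 0.98, and *Hspa5* 0.54 and 1.17, so the order of these genes depends on the library. *Xbp1* had the lowest control TE in each table, at -1.11, -0.95 and -0.98 in that order with LRRK2 KO last, by the means of the libraries. In single WT libraries this order did not always hold: with footprinting library 2, *Xbp1* was at -0.59 with RNA-Seq library 1, above *P4hb* at -0.79, and at -1.23 with RNA-Seq library 2, the highest of the 10. The members' median control TE was -0.06, 0.05 and -0.41, and that of all transcripts -0.17, 0.04 and -0.64. In single control libraries beside GS/DA LRRK2 TG mice, the members' median depended on the RNA-Seq library. With RNA-Seq library 1 it was -0.28 and -0.14 for footprinting libraries 1 and 2, where all transcripts had 0.11 and 0.08. With RNA-Seq library 2 it was 0.24 and 0.44, where all transcripts had 0.06 and 0.05. In the LRRK2 KO table *Hsp90b1* and *Pdia3* had WT TE of -0.43 and -0.39, near the members' median of -0.41. *Hsp90b1* had 0.15 with WT RNA-Seq library 1 and -0.84 with library 2.

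Predicted 5′UTR folding energy of the members had a median of -55.1 kcal/mol, against -91.2 over the transgenic tables and -90.4 over the LRRK2 KO table. It ran from -98.0 for *Pdia4*, a disulfide isomerase, to -15.2 for *Xbp1* and -1.3 for *Pdia6*, another isomerase. GC content of the coding sequence had a median of 49.5% over the members, with *Xbp1* the highest at 54.7% and *Hsp90b1* the lowest at 43.2%, against 52.8% over all transcripts.

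Several promoters held the ER stress element, the bipartite motif known to bind NF-Y and ATF6, searched on both strands as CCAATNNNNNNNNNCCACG. Of the 10 members, 9 had a promoter of 300 bases in the RefSeq set for GRCm38.p6, from 250 bases before to 50 after the gene start, and *Hyou1* was not in it. The motif was in 5 of these 9 promoters and in 39 of all 32851 (0.119%). The matches are printed because 5 members share the element, with 5 bases on each side and with CCAAT and CCACG in capitals. They lie at chr2:34772025-34772043 for *Hspa5*, at chr10:86705638-86705656 on the gene's strand and chr10:86705533-86705551 on the opposite strand for *Hsp90b1*, at chr8:84847075-84847093 on the opposite strand for *Calr*, at chr11:50325800-50325818 for *Canx* and at chr12:17266491-17266509 for *Pdia6*, the isomerase of that name. Each match reads 5′ to 3′ on the strand it was found on:
Hspa5: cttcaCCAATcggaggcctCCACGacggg
Hsp90b1, gene strand: caagcCCAATcgcaaggagCCACGcttcg
Hsp90b1, opposite strand: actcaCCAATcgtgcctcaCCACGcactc
Calr, opposite strand: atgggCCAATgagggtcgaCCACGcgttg
Canx: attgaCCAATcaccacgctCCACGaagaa
Pdia6: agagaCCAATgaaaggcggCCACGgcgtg
Counted along the gene's strand for all matches, that of *Hspa5* starts 65 bases before the gene start. Those of *Hsp90b1* start 212 and 107 bases before it, that of *Calr* 162, that of *Canx* 145 and that of *Pdia6* 98. The letters were not found in the windows of *Pdia3*, *Pdia4*, *P4hb* and *Xbp1*. Of these, *Pdia3*, *Pdia4* and *P4hb* had log2 ratios of footprinting library 1 to library 2 of 1.28, 1.25 and 1.39 in WT and 1.38, 1.55 and 1.73 in LRRK2 KO, where the members' medians were 1.33 and 1.47. *Xbp1* had -0.08 and 0.03.

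In GS LRRK2 TG mice, footprints on the ER chaperones lay close to the non-TG control mean, with log2 changes from -0.16 for *Hspa5* to 0.10 for *Canx*. RNA of *Hspa5* and *Hsp90b1* was lower in mean than in controls, by log2 changes of -0.46 and -0.38. TE of *Hsp90b1* was higher in mean by 0.43. Changes were scored as *z*, the log2 change less its mean over all transcripts of the table, divided by their SD. Where a library or batch was left out, this mean and SD were taken again over all transcripts in that setting. The limits were 1.5 and -1.5, which the study set for TE differences. They were applied here to footprint and RNA changes as well. In footprints 0 of 10 members passed them, against 8.69% of all transcripts; in RNA 2 of 10 did, both below, against 11.2%, and in TE 1 of 10, above, against 11.9%.

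*Hspa5* footprints averaged 5905 normalized reads in the controls and were at 5979 and 4585 in the GS LRRK2 TG libraries. *Hspa5* RNA averaged 3576 in the controls and was at 3218 and 1980 in the GS LRRK2 TG libraries. Both transgenic RNA libraries lay below the control mean, whose single libraries could not be resolved, so overlap of the groups cannot be read. The RNA change of -0.46 had a *z* of -1.99. It was -0.15 (*z* 0.08) without RNA-Seq library 2 and -0.85 (*z* -0.47) without library 1, inside the limits both times. Without library 1 the change was larger and its *z* smaller in size, since changes of all transcripts were shifted and spread wider there.

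*Hsp90b1* footprints averaged 4620 in the controls and were at 4958 and 4614 in the GS LRRK2 TG libraries. *Hsp90b1* RNA averaged 2475 in the controls and was at 3093 and 724 in the GS LRRK2 TG libraries, so 1 library was above the control mean and the other far below it. The TE difference of 0.43 (*z* 1.73) became -0.27 without RNA-Seq library 2 and 1.82 without library 1, and the RNA change of -0.38 (*z* -1.58) became 0.32 and -1.77. With the change taken as a residual on GC content, the TE difference was 0.25 (*z* 1.01). The TE call on *Hsp90b1* was lost without RNA-Seq library 2 (*z* -0.62), without RNA-Seq library 1 (*z* 1.34) and without footprinting library 1 (*z* 1.13 at a difference of 0.37). Its RNA call was lost without either RNA-Seq library (*z* 0.65 and -1.33). Without RNA-Seq library 1 both changes were larger than with both libraries. These calls were lost there through the wider spread over all transcripts, so their loss does not show smaller changes.

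For the lectins, footprint changes were 0.03 for *Calr* and 0.10 for *Canx*, and TE differences -0.16 and 0.19. Leaving out a GS LRRK2 TG library moved the *Canx* TE difference from -0.55 to 1.83, and for *Calr* it moved TE from -0.40 to 0.05 and footprints from -0.20 to 0.23, so these directions depend on the library. Disulfide isomerases had footprint changes from -0.12 for *Pdia6* to 0.08 for *P4hb*, the isomerase that is also a prolyl hydroxylase subunit. Their TE differences ran from -0.16 for *P4hb* to 0.22 for *Pdia3*. Without a library the *Pdia6* footprint change ran from -0.36 to 0.09 and that of *P4hb* from 0.04 to 0.12. *Xbp1* was at 0.02 in TE difference, and from -0.22 to 0.27 without a library. The members' median TE difference was 0.0091, against 0.02 over all transcripts, with 5 members above 0 and 5 below. Members above 0 numbered 7 without RNA-Seq library 1, 3 without RNA-Seq library 2, 4 without footprinting library 1 and 9 without footprinting library 2.

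Other genes of ER folding, sorting and stress in this comparison counted 130 transcripts in 8 lists that include cytosolic chaperones. Past the *z* limits were 12 above and 7 below in TE, 2 and 7 in footprints, and 5 and 9 in RNA, where 11.9%, 8.69% and 11.2% of all transcripts passed them in either direction. *Ero1l*, the oxidase that recharges the disulfide isomerases, had an RNA change of -0.51 and a TE difference of 0.56. *Sdf2l1*, a cofactor of the *Hspa5* product, had a footprint change of -0.43. The lists of these genes did not go 1 way in RNA. Of 14 ER co-chaperones 3 were above and 1 below the *z* limits, and of 13 oxidative folding and other disulfide isomerase genes 2 and 1. Choroid plexus markers differed in mean between the groups: of 10 symbols 3 were listed, *Ttr* the most abundant. Their summed footprints averaged 8252 in controls, whose libraries were not resolved, against 3903 and 5000 in the GS LRRK2 TG libraries. Control libraries beside GS/DA LRRK2 TG mice were at 5320 and 26078, so a single control pool can weigh heavily in such a mean. Cortical neuron markers (4 of 7 listed) averaged 1757 in control footprints. They were at 575 and 2483 in the GS LRRK2 TG libraries, on both sides of that mean, with a log2 ratio of summed RNA of -0.67. The part of either tissue in the values of the ER chaperones was not tested.

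**Figure D2:**
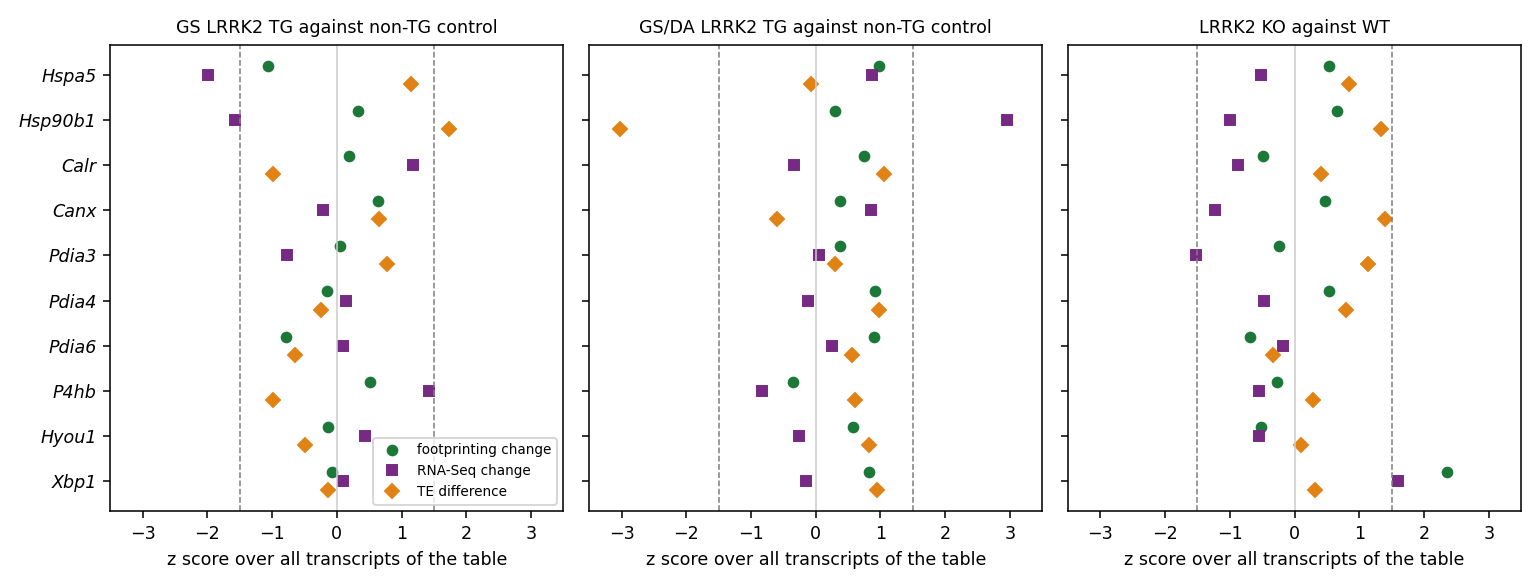
*z* score of each ER chaperone gene over all transcripts of its table, for the footprint change, the RNA-Seq change and the TE difference in each comparison; dashed lines mark 1.5 and -1.5. *Hsp90b1* TE lies at 1.73 in GS LRRK2 TG and -3.02 in GS/DA LRRK2 TG mice, and *Xbp1* footprints lie at 2.35 in LRRK2 KO mice.

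In GS/DA LRRK2 TG mice, footprints on 9 of the 10 ER chaperones were above the control mean, by small amounts. Log2 changes ran from -0.06 for *P4hb* to 0.15 for *Hspa5*, with a median of 0.10 against -0.0068 over all transcripts, of which 47.5% were above 0. *Hsp90b1* RNA was higher in mean by 0.64 and its TE lower, at a difference of -0.60. No member passed the *z* limits in footprints (0 of 10, against 7.53% of all transcripts). *Hsp90b1* alone did so in RNA (1 of 10, against 10.3%) and in TE (1 of 10, against 11%).

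*Hspa5* footprints were at 6666 and 7331 normalized reads in the control libraries and at 7642 and 7918 in the libraries of GS/DA LRRK2 TG mice. *Xbp1* footprints were at 627 and 668 in the controls and at 702 and 715 in GS/DA LRRK2 TG mice, and those on *Pdia4* at 1274 and 1449 against 1477 and 1529. In these genes both transgenic libraries lay above both controls, which makes 3 of 10 members without overlap between groups, against 24.2% of all transcripts in either direction. The share over all transcripts is near that of the members. Matched by library batch, the footprint change of *Hspa5* was 0.20 and 0.11, that of *Pdia4* 0.21 and 0.08, and that of *Xbp1* 0.16 and 0.10. The members' median was 0.12 and 0.08 within batches, against -0.0075 and -0.0058 over all transcripts. With the opposite matching the members' median was 0.22 and -0.01.

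*Hsp90b1* footprints were at 5753 and 5847 in the controls and at 6126 and 5841 in GS/DA LRRK2 TG mice. *Hsp90b1* RNA was at 3693 and 1268 in the controls and at 1022 and 6734 in GS/DA LRRK2 TG mice, a 6.59-fold gap between transgenic libraries. The control values lie inside the range of the transgenic values, so the groups overlap. Within batches, the RNA change was 0.87 and -0.31, and with the opposite matching -1.85 and 2.41. Without RNA-Seq batch 1 the TE difference was 0.36 in place of -0.60, so the direction depends on that batch.

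*Canx* RNA followed the same libraries, at 7666 and 2241 in the controls and 1926 and 9731 in GS/DA LRRK2 TG mice, with batch changes of 0.34 and -0.22. *Calr* RNA was at 9670 and 6287 in the controls and 6967 and 9063 in GS/DA LRRK2 TG mice, and the groups overlap. In RNA, 0 of 10 members were without overlap, against 3.38% of all transcripts. Disulfide isomerases had TE differences from -0.02 for *Pdia3* to 0.10 for *Pdia4*, and *Hyou1* had 0.07. Without a batch that of *Pdia3* ran from -0.21 to 0.16, that of *P4hb* from -0.18 to 0.21 and that of *Hyou1* from -0.07 to 0.23. *Pdia4* stayed above 0, from 0.03 to 0.17. The members' median TE difference was 0.03, against -0.05 over all transcripts.

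**Figure D3:**
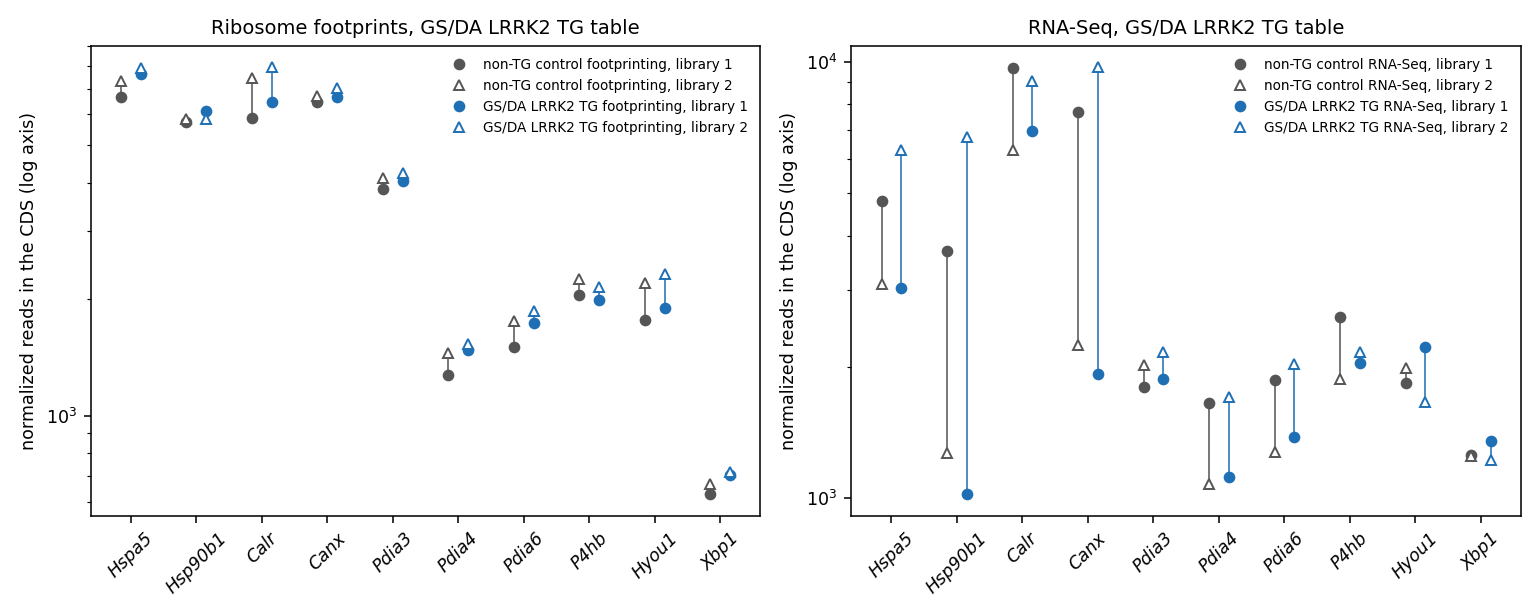
Normalized reads in the coding sequence (log axis) of each ER chaperone gene in single libraries of GS/DA LRRK2 TG mice and their controls, with footprints on the left and RNA-Seq on the right; a line joins both libraries of a genotype. *Hsp90b1* RNA spans 1022 to 6734 between the GS/DA LRRK2 TG libraries, while its footprints stay between 5753 and 6126 in all libraries.

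Fitted with limma over 8313 transcripts, no member passed an adjusted p of 0.05 in footprints, RNA or TE, and no transcript did (0% in each). At an unadjusted p under 0.05 limma counted 3, 2 and 0 transcripts in that order, and 0 members. *Hspa5* footprints had a limma log2 change of 0.15 (SE 0.431, adjusted p 1.00), and *Hsp90b1* TE one of -0.23 (SE 1.33, adjusted p 1.00). With batch terms in the limma model, SEs of the members' footprint and RNA changes ran from 0.102 to 0.265. The adjusted counts were again 0 members and 0 transcripts (0%) in each readout, with 274, 379 and 34 transcripts and 0 members at an unadjusted p under 0.05. These fits take 1 spread per transcript over both assays, so gaps between RNA-Seq libraries widen the SE of footprint changes too. With each assay fitted on its own, limma gave *Hspa5* footprints an SE of 0.120 (p 0.248, adjusted p 1.00), and 0 members and 0 transcripts passed in footprints (0%) or RNA (0%), with 154 and 0 transcripts and 0 members at an unadjusted p under 0.05. A miss of the threshold with 2 libraries a group does not show that levels were equal. The GS LRRK2 TG table could not be fitted, since its control libraries were not resolved.

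Of the 130 other ER and chaperone transcripts listed for GS/DA LRRK2 TG mice, 3 were above and 9 below the *z* limits in TE, 1 and 2 in footprints, and 6 and 4 in RNA, where 11%, 7.53% and 10.3% of all transcripts passed them in either direction. In group means, *Sec62*, a translocon subunit, had a TE difference of -0.62 with an RNA change of 0.61. *Hsp90aa1*, the inducible cytosolic Hsp90, had one of -0.64 with an RNA change of 0.71. Choroid plexus markers (3 of 10 listed, *Ttr* the most abundant) summed to 5320 and 26078 in control footprints and 10984 and 5495 in GS/DA LRRK2 TG footprints. Cortical neuron markers (4 of 7 listed, *Slc17a7* the most abundant) summed to 1792 and 1243 in control footprints and 4335 and 2765 in GS/DA LRRK2 TG footprints. Striatal neuron markers had a log2 ratio of summed footprints of -0.31, with 4 of the 10 listed past *z* in footprints. What part these tissue differences have in the footprints on the ER chaperones was not tested.

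Labels give a single group of 3 non-TG control libraries per assay, and the tables do not say which of them each transgenic comparison used, so the values stand side by side and may not be independent. *Hsp90b1* RNA changed by -0.38 in GS LRRK2 TG and 0.64 in GS/DA LRRK2 TG mice, *Hspa5* RNA by -0.46 and 0.24, and *Canx* RNA by -0.09 and 0.23. None of these contrasts in RNA is steady: without a library *Canx* RNA ran from -1.73 to 0.65 in GS LRRK2 TG mice, and within batches *Hspa5* RNA changed by 0.39 and -0.03 in GS/DA LRRK2 TG mice. Footprint changes were 0.05 and 0.04 for *Hsp90b1*, -0.16 and 0.15 for *Hspa5*, and 0.10 and 0.06 for *Canx*. Without a GS LRRK2 TG library the *Hspa5* footprint change there ran from -0.36 to 0.02, so its direction depends on the library. That of *Hsp90b1* ran from -0.0019 to 0.10 and that of *Canx* from 0.09 to 0.10.

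In LRRK2 KO mice, *Xbp1* had the widest footprint change among the ER chaperones, with mean footprints higher than in WT by 0.48 (log2) and mean RNA by 0.37. RNA of the other 9 members was lower in mean than in WT, from -0.05 for *Pdia6* to -0.37 for *Pdia3*, while 51.3% of all transcripts were above 0. TE was higher in mean for 9 of 10 members, *Pdia6* being the exception at -0.07, with 53.0% of all transcripts above 0. That count was 6 without RNA-Seq batch 2, where *Hspa5*, *Calr* and *Hyou1* fell to -0.31, -0.14 and -0.08. It was 8 without RNA-Seq batch 1, 8 without footprinting batch 1 and 9 without footprinting batch 2. The members' median TE difference was 0.18, against 0.02 over all transcripts, and their median RNA change -0.14 against 0.0075. Past the *z* limits were 1 of 10 members in footprints (*Xbp1*), against 10.1% of all transcripts, 2 of 10 in RNA (*Xbp1* above and *Pdia3* below), against 10.9%, and 0 of 10 in TE, against 12.3%.

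*Xbp1* footprints were at 104 and 111 normalized reads in WT and at 151 and 148 in LRRK2 KO libraries. These rest on 134 and 83 reads in WT and 221 and 106 in LRRK2 KO. Both LRRK2 KO libraries lay above both WT libraries, which holds for 1 of 10 members against 12.7% of all transcripts in either direction. Within batches, the *Xbp1* footprint change was 0.54 and 0.42, and with the opposite matching 0.51 and 0.45. *Xbp1* RNA was at 167 and 259 in WT and at 183 and 367 in LRRK2 KO, where the groups overlap. The RNA change was 0.14 in batch 1 (*z* 0.69) and 0.50 in batch 2 (*z* 1.19), against a *z* of 1.6 for both together, and the TE difference was 0.11 (*z* 0.32).

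By limma, the *Xbp1* footprint change was 0.44 (SE 0.360, p 0.257, adjusted p 1.00). With batch terms in limma the SE was 0.189 and the p 0.0279, with an adjusted p of 1.00 over 9497 transcripts. Fitted on footprints alone, limma gave an SE of 0.199 and a p of 0.0846 (adjusted p 1.00). *Xbp1* footprints do not pass the adjusted threshold in any of these fits. The footprint *z* was 2.35, and without footprinting batch 1 it was 1.49, just inside the limit.

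*Pdia3* RNA was at 510 and 1268 in WT and at 439 and 940 in LRRK2 KO, so the groups overlap and the libraries of a genotype lie farther apart than the genotypes. Its changes were -0.22 in batch 1 and -0.43 in batch 2, with *z* of -1.08 and -1.01 against -1.52 for both together, and with a limma adjusted p of 0.915 under batch terms. *Canx* and *Hsp90b1* had the highest TE differences, 0.40 (*z* 1.40) and 0.38 (*z* 1.34). Without a batch that of *Canx* ran from 0.03, without footprinting batch 1, to 0.56, and that of *Hsp90b1* from 0.17 to 0.50. *Canx* footprints were at 1600 and 787 in WT and at 1912 and 655 in LRRK2 KO, and its RNA at 779 and 2005 against 738 and 1526. Neither readout of *Canx* separated the genotypes. In RNA, 0 of 10 members were without overlap, against 14.1% of all transcripts.

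Within library batches, the members' median footprint change was 0.06 in batch 1 and -0.08 in batch 2, against 0.05 and -0.02 over all transcripts. The median RNA change was -0.02 in batch 1 and -0.26 in batch 2, where all transcripts had 0.0032 and 0.0026. The lower mean RNA of the members in LRRK2 KO mice lay mainly in batch 2, whose RNA-Seq libraries were the high ones for all 10. *Hspa5* showed the split most plainly, with an RNA change of 0.43 (*z* 2.15) in batch 1, past the limit, and -0.37 (*z* -0.85) in batch 2. Under the opposite matching the members' median RNA changes were 1.07 and -1.26, which shows how far they rest on the pairing of libraries.

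In limma, 0 of 10 members passed an adjusted p of 0.05 in footprints, RNA or TE of the LRRK2 KO table, and 0 transcripts did (0% in each), with 17, 9 and 4 transcripts and 0 members at an unadjusted p under 0.05. With batch terms limma called 5 transcripts in footprints (0.0526%), 4 in RNA (0.0421%) and 0 in TE (0%), none of them a member. The unadjusted counts were then 217, 461 and 185 transcripts, with 1 member in footprints, *Xbp1*, and 0 in RNA and TE. With each assay fitted on its own, limma called 0 members and 0 transcripts in footprints (0%) and RNA (0%), with 16 and 7 transcripts and 0 members at an unadjusted p under 0.05.

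Of 134 other ER and chaperone transcripts in the LRRK2 KO table, 13 were above and 6 below the *z* limits in TE, 10 and 2 in footprints, and 10 and 6 in RNA, where 12.3%, 10.1% and 10.9% of all transcripts passed them in either direction. In group means, *Dnajb9*, an ER J-domain cofactor of the *Hspa5* product, had a footprint change of 0.46, an RNA change of -0.26 and a TE difference of 0.72. *Atf4*, the transcription factor of another UPR branch, had a TE difference of -0.77 in group means. Of the cell type markers, the microglia sum differed most between genotypes, with log2 ratios of the sums of 0.16 in footprints and 0.28 in RNA, and its part in the *Xbp1* values was not tested.

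*Hspa5* was compared with the 1675 transcripts whose group means all reached 500, by the Euclidean distance over 6 log2 changes (footprints and RNA in 3 comparisons). The nearest were *Hsph1*, a cytosolic Hsp110 chaperone, at 0.161, *Hnrnpu* at 0.187, *Tro* at 0.219, *Ddx1* at 0.232 and *Celf4* at 0.238, where the median distance was 0.597. Of the other members that met the minimum, *Pdia3* came 254th at 0.454, *Canx* 360th at 0.489, *Hsp90b1* 365th at 0.490 and *Calr* 1438th at 0.753. The transgenic changes may share control libraries, and no test was made of these distances.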

How the data were processed

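The authors aligned reads to mm9 with TopHat2 2.0.11 and Bowtie2 2.2.2, counted them in the coding sequence and normalized with DESeq 1.20. The deposited group means are a signal with no SD, and each of the 3 tables has its own normalization. The 5′UTR folding energy is a score in kcal/mol that the authors took from an annotation. The TE, TE difference and *z* columns that the authors deposited were not used, and all of these were recomputed with a pseudocount of 0.

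Reads of single libraries were recovered from means of 2 libraries, each a sum of whole multiples of 2 steps. This resolved 10 of 12 columns and 97.8% to 99.5% of their transcripts, and was tested on simulated data. Libraries of both genotypes were matched to batches by the difference between libraries that they share (Spearman rho in size 0.740 for footprinting and 0.978 for RNA-Seq with GS/DA LRRK2 TG mice, 0.763 and 0.684 with LRRK2 KO mice), so a batch is read from values and not from labels. Batches are numbered by their control library.

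limma 3.58.1 in R 4.3.3 was fitted per table on log2(normalized reads + 10), with 4 groups of genotype and assay and Benjamini-Hochberg adjustment over all transcripts. GC content came from NCBIM37 and was matched for 97.1% of transcripts in the transgenic tables and 97.0% in the LRRK2 KO table.

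All 10 members are named, with up to 3 genes per pathway list and comparison, the largest past *z*, and the 5 transcripts nearest to *Hspa5*. Members and lists were chosen with earlier results of these data known. Alternatives were *z* limits of 1 and 2, a *z* from the median and the scaled MAD, a filter on low means, other pseudocounts, a residual on GC content, centring, batch terms, equal medians, each assay fitted on its own and leaving out libraries.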

Additional observations from a re-analysis of the deposited data

How the results depend on the processing

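The deposited columns are group means, so depth and replicate error are known only for resolved libraries, 2 per group. No paired analysis was possible from labels, because the columns carry no replicate numbers, and changes within batches rest on batches read from the values. Leaving out GS LRRK2 TG libraries and fitting each assay on its own were added after seeing the data. With 1 library left in a group these are values with no test.

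Members past *z* are given here with the share of all transcripts in brackets. In GS LRRK2 TG they numbered 2 in TE (28.5%), 1 in footprints (21.9%) and 4 in RNA (26.6%) at a limit of 1. At a limit of 2 they numbered 0 in TE (4.73%) and 0 in RNA (4.82%), and as residuals on GC content 0 in TE (12.3%) and 1 in RNA (11.3%). Leaving out a GS LRRK2 TG library gave 0 to 2 in TE (9.57% to 11.4%) and 0 to 0 in RNA (9.57% to 9.77%). In GS/DA LRRK2 TG they numbered 2 in TE (24.8%) at a limit of 1, and 0 to 1 in TE (9.54% to 11.8%) and 0 to 1 in RNA (10.3% to 10.6%) without a batch. In LRRK2 KO they numbered 1 in TE with the MAD (14.8%), 3 in TE at a limit of 1 (29.1%), 0 in RNA at a limit of 2 (3.87%), 1 in TE with a pseudocount of 10 (12.6%) and 1 in RNA as residuals on GC content (10.9%). The filter on low means gave 1 in TE (12.4%), 0 in footprints (11.5%) and 1 in RNA (11.8%), over the 8 members that passed it, without *Xbp1*. Leaving out a batch gave 0 to 1 in footprints (10.7% to 11.1%) and 0 to 1 in RNA (10% to 12.4%), the latter *Hspa5*, above the limit without RNA-Seq batch 2.

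The median TE difference in GS LRRK2 TG was -0.012 when centred on all transcripts and -0.22 to 0.16 without a library. In GS/DA LRRK2 TG it was 0.0815 when centred, -0.0045 as residuals on GC content and -0.0050 to 0.0611 without a batch, and in LRRK2 KO 0.10 to 0.26 without a batch. *Hsp90b1* turned direction: in GS LRRK2 TG its TE difference ran from -0.27 to 1.82 and its RNA change from -1.77 to 0.32 without a library, and in GS/DA LRRK2 TG from -0.82 to 0.36 and from -0.31 to 0.87 without a batch. *Canx* turned as widely, with TE from -0.55 to 1.83 and RNA from -1.73 to 0.65 in GS LRRK2 TG and TE from -0.29 to 0.27 in GS/DA LRRK2 TG, and *Hspa5* TE ran from -0.24 to 0.18 in GS/DA LRRK2 TG and from -0.31 to 0.49 in LRRK2 KO. For all of these the cause was not tested. The count of members that limma called was 0 under every alternative fitted (batch terms, a pseudocount of 1, equal medians, the filter on low means and each assay on its own), and at an unadjusted p under 0.05 batch terms gave 1 member, *Xbp1* in LRRK2 KO footprints. Over single members and readouts, direction held in 108 of 140 GS LRRK2 TG values, 120 of 140 GS/DA LRRK2 TG values and 125 of 140 LRRK2 KO values. The alternatives counted are those that can turn it (a pseudocount of 10, residuals on GC content and leaving out libraries). For GS LRRK2 TG a transgenic library was left out against an unchanged control mean. In the other comparisons a batch was left out of both genotypes, so the counts are not alike.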

Other observations

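Single other genes of ER folding had wide changes in the group means of LRRK2 KO mice. There 12.3% of all transcripts passed the *z* limits in TE, 10.9% in RNA and 10.1% in footprints, in either direction. Values of single libraries are not given for these genes. Of the oxidative folding list, 9 of 14 genes in WT and 12 of 14 in LRRK2 KO were at least 2-fold higher in footprinting library 1. At an adjusted p under 0.05 limma called 0 transcripts in TE, with or without batch terms. *Uggt2*, a relative of the glucosyltransferase that returns unfolded glycoproteins to the lectins, had an RNA change of 1.52 (log2) and a footprint change of 1.03, the widest among the 6 listed genes of its list, where 1 of 6 passed *z* in RNA and 1 of 6 in footprints. Its TE difference was -0.50, so its list had 0 above and 1 below the *z* limits in TE, with a median of -0.04. In GS LRRK2 TG mice its footprint change was -0.63. Of 14 oxidative folding and other disulfide isomerase genes, 5 were above the *z* limit in TE and 0 below in LRRK2 KO mice, with a median TE difference of 0.28, and *Tmx3*, a membrane isomerase, had 0.72. Of 14 ER co-chaperones 1 was above and 4 below in TE, with a median of -0.13. Of 21 genes of ER-associated degradation 2 were above in TE and 0 below, and of 25 genes of the translocon, signal peptidase and oligosaccharyltransferase also 2 and 0. *Spcs3*, a signal peptidase subunit, had a TE difference of 0.93. Of 11 UPR sensors and transcription factors 0 were above and 1 below, and of 9 proline isomerases and calcium-binding lumenal proteins 0 and 0. Among 34 cytosolic chaperones 3 were above in TE and 0 below, and *Hspa1a* and *Hspa1b*, near-identical copies whose reads are hard to assign, had 0.75 and 0.68.

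In GS LRRK2 TG mice the same copies had footprint changes of -0.61 and -0.60, and 4 of 34 cytosolic chaperones were below the *z* limit in footprints, where 8.69% of all transcripts passed it in either direction. In group means, *Nucb2*, a calcium-binding protein, had a TE difference of 0.62 in GS LRRK2 TG and -0.38 in GS/DA LRRK2 TG mice. *Sec62* had 0.58 and -0.62, in comparisons whose non-TG controls may be shared. RNA changed by -0.42 for *Nucb2* in GS LRRK2 TG and by 0.61 for *Sec62* in GS/DA LRRK2 TG mice. Between RNA-Seq libraries of a group, 49.3% to 57% of all transcripts differed at least 2-fold. Whether the directions of *Nucb2* and *Sec62* hold without a library was not tested. Oligodendrocyte markers (8 of 8 listed, *Mbp* the most abundant in the transgenic tables) had log2 ratios of summed footprints of 0.16 in GS LRRK2 TG, 0.02 in GS/DA LRRK2 TG and -0.0099 in LRRK2 KO mice, and astrocyte markers (7 of 7) 0.07, 0.08 and -0.02. Striatal neuron markers had -0.12, -0.31 and 0.05, with 2, 4 and 1 of the 10 listed past *z* in footprints.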
